A study of Mus musculus with 19 samples.

Results

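The nuclear pore and nuclear transport genes described here are the genes on the array whose names mark them as nucleoporins (Nup and Nupl), Ran and its partners (Ran, Rangap1, Ranbp), importins and transportins (Ipo, Kpna, Kpnb, Tnpo) or exportins (Xpo). The name rule found 56 genes with 88 probes among 35019 named genes. Of these, 49 entered the tests among 20613 genes, because their probe was well above background on at least 4 of 19 arrays, and the other 7 did not. Where a gene had several probes, its brightest by mean signal stood for it.

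The mRNA came from CD4 T cells taken from Spleen/Lymph nodes of mice, all adult and female, that carried 2 transgenic reporters, Tg IL-2-GFP x FOXP3mRFP, on a C57Bl/6 background. GFP marks IL-2, the T cell growth factor, and RFP marks Foxp3, the transcription factor of regulatory T cells (Treg). The groups were GFP+RFP+ cells (IL-2 reporter-positive Treg, 4 arrays), GFP-RFP+ cells (Treg, 5 arrays), GFP+RFP- cells (IL-2 reporter-positive conventional cells, 5 arrays) and GFP-RFP- cells (conventional cells, 5 arrays). All groups shared the genotype, both transgenes included, and no treatment of the mice was given in the labels. A cell type tag in the labels calls every sample conventional, while the subtype of the RFP+ samples says regulatory, and samples were grouped by reporter colour. No label says that the replicates are different animals. The p-values therefore cover only the variation among these samples, and part of it may be technical. The mRNA was turned into cDNA and amplified by a global PCR before labelling.

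The nuclear pore complex is a ring of nucleoporins that spans the nuclear envelope. A scaffold (the Y complex and the inner ring) holds the channel, nucleoporins rich in phenylalanine-glycine (FG) repeats fill it, and filaments reach into the cytoplasm and form a basket in the nucleus. Importins carry proteins inward and exportins carry proteins and RNAs outward, and the small GTPase Ran sets the direction: Ran-GTP is high in the nucleus, where it releases import cargo and loads export cargo, and Rangap1 with the Ran-binding proteins hydrolyses it at the cytoplasmic face. In T cells this traffic carries NFAT and NF-κB factors into the nucleus after activation, and Xpo1 returns NFAT to the cytoplasm.

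The 2 probe sequences below are those of Ranbp2, the member that passed the test in both Foxp3 reporter comparisons, and of Xpo6, which had a similar split in detection. Both are printed 5′ to 3′ from the deposited scanner files, all in lower case because no part of a probe is singled out. The Ranbp2 probe lies on chr10:57956644-57956703 (mm9, plus strand), has a GC content of 35.0% and was spotted 1 time per array. The Xpo6 probe lies on chr7:133248331-133248390 (mm9, minus strand), has a GC content of 45.0% and was spotted 10 times per array. Whether a probe falls in an exon's coding part or in a UTR was not annotated here.
Ranbp2: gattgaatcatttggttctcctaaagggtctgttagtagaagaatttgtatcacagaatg
Xpo6: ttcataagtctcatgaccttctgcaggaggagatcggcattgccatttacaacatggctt

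Levels are given as log2 of the processed signal minus the array's 75th percentile, computed from the 6610 probes that exceeded background on every array. A level of 0 is thus the signal of a bright probe, and values near -10 come from spots at the floor of the scanner. Group values are means ± SD. The arrays themselves differed between the groups. The 75th percentile of signal averaged 5268 ± 843 intensity units in GFP+RFP+ cells (SD, n = 4) and 12764 ± 3017 in GFP+RFP- cells (SD, n = 5), and 7021 ± 3110 in GFP-RFP+ cells against 14931 ± 2296 in GFP-RFP- cells (SD, n = 5 each). Both differences had an adjusted p of 0.0318 in two-sided exact permutation tests over 4 comparisons. The percent of probes well above background differed by -10.99 points between GFP-RFP+ and GFP-RFP- cells (two-sided exact permutation p = 0.0238, adjusted 0.0952), and by -4.66 points between GFP+RFP+ and GFP+RFP- cells (p = 0.175 in the same exact permutation test, adjusted 0.233). Of 7 T cell genes listed, Cd3d, Cd3g, Cd4, Cd5 and Lck were well above background on all 19 arrays, Cd2 on 17 and Cd3e on 15. Their sums relative to the 75th percentile were 4.03 to 6.83 in GFP+RFP+ cells and 8.59 to 17.7 in GFP-RFP+ cells, against 5.72 to 10.2 in GFP+RFP- cells and 6.73 to 7.84 in GFP-RFP- cells. Of 5 Treg genes listed, Foxp3 averaged -6.13 in GFP+RFP+ cells and -5.35 in GFP-RFP+ cells, against -7.64 in GFP+RFP- cells and -7.89 in GFP-RFP- cells on the log2 scale, and was well above background on all 19 arrays. Ctla4, an inhibitory receptor of Treg, ran the other way, at -3.08 in GFP+RFP+ cells and -6.30 in GFP-RFP+ cells, against -2.22 in GFP+RFP- cells and -2.65 in GFP-RFP- cells. Gpr83 exceeded background on none of the 4 arrays of GFP+RFP+ cells and 4 of 5 of GFP-RFP+ cells, against 1 of 5 of GFP+RFP- cells and 0 of 5 of GFP-RFP- cells. Il2ra was so on 5 and Ikzf2 on 8 of 19 arrays. The 5 Treg genes summed to 0.267 to 1.31 in GFP+RFP+ cells and 0.0220 to 2.19 in GFP-RFP+ cells, against 0.0922 to 1.23 in GFP+RFP- cells and 0.0192 to 0.666 in GFP-RFP- cells, so their sums overlapped between the lineages.

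Among markers of other cells, the 4 B cell genes listed summed to between 0.00262 and 0.0145 of the 75th percentile in GFP+RFP+ cells, with 0 to 2 of the 4 well above background on an array, and to between 0.00371 and 0.508 in GFP-RFP+ cells, also with 0 to 2. They summed to between 0.0244 and 1.63 in GFP+RFP- cells, with 1 to 3, and to between 0.105 and 0.931 in GFP-RFP- cells, with 1 to 4. The defining B cell gene Ms4a1 was well above background on 1 of 19 arrays. The sum of the 5 myeloid and dendritic genes ran the other way. It was 12.0 to 26.2 in GFP+RFP+ cells and 8.09 to 23.9 in GFP-RFP+ cells, against 6.65 to 12.6 in GFP+RFP- cells and 6.03 to 8.06 in GFP-RFP- cells. On any array 2 to 4 of the 5 were well above background, and Itgax was so on none. The sums came mainly from the Itgam probe, which averaged 4.10 for GFP+RFP+ cells and 2.69 for GFP-RFP- cells on the log2 scale. Csf1r did not share this split, at -1.02 in GFP+RFP+ cells and -0.76 in GFP-RFP+ cells, against -1.11 in GFP+RFP- cells and -0.85 in GFP-RFP- cells. The alpha-globin gene Hba-a1, an erythroid marker, averaged 0.16 in GFP+RFP+ cells and -0.14 in GFP-RFP+ cells, against 0.53 in GFP+RFP- cells and 2.31 in GFP-RFP- cells on the log2 scale, and was well above background on 18 of 19 arrays. The 4 CD8 and NK cell genes stayed under 0.843 on every array. The part of array brightness, detection and these other cells in the member results below was not tested, except where an alternative setting is given.

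Members were detected on fewer arrays of Treg than of conventional cells. The number of the 49 members well above background was 22, 22, 29 and 30 on the GFP+RFP+ arrays and 19, 19, 37, 16 and 20 on the GFP-RFP+ arrays. It was 37, 31, 33, 23 and 42 on the GFP+RFP- arrays and 38, 41, 33, 35 and 35 on the GFP-RFP- arrays. GFP-RFP+ replicate 3, with 37, was the only Treg array above 30, and GFP+RFP- replicate 4, with 23, was the lowest conventional array. In mean percent per group, 52.6% ± 8.88 of members and 63.2% ± 7.26 of all tested genes were well above background in GFP+RFP+ cells (SD, n = 4), against 67.8% ± 14.5 and 71.6% ± 6.32 in GFP+RFP- cells (SD, n = 5). The values were 45.3% ± 17.2 of members and 59.3% ± 11.4 of all tested genes in GFP-RFP+ cells, against 74.3% ± 6.39 and 77.4% ± 3.70 in GFP-RFP- cells (SD, n = 5 each). On 16 of 19 arrays the percent of members was below that of all tested genes. The probes of the members had a median GC content of 38.3%, against 45.0% for all tested genes, and the part of GC content in their detection was not tested.

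**Figure D1:**
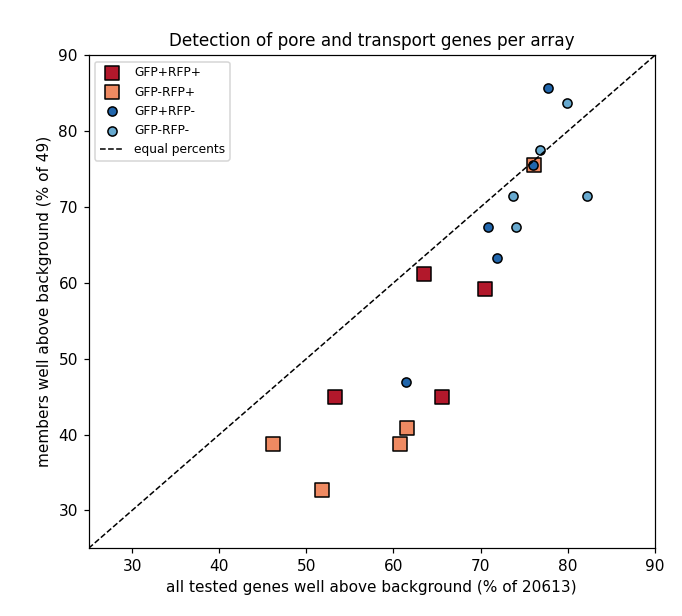
Percent of the 49 members (y axis) and of all 20613 tested genes (x axis) that were well above background, 1 point per array, with squares for RFP+ and circles for RFP- arrays; the dashed line marks equal percents. Of the 19 arrays, 16 lie below the line, and the GFP-RFP+ array with 75.5% of members is replicate 3, which lies among the RFP- arrays.

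Gene by gene, 37 members (75.5%) were well above background on a larger share of RFP- than of RFP+ arrays, as were 55.8% of all tested genes. The reverse held for 6 members (12.2%, against 16.6% of all tested genes): Nup155, Nup98, Ran, Ranbp17, Ranbp3 and Xpo4. The 6 members well above background on all 19 arrays were Ipo4, Kpna6, Nup107, Nup93, Ranbp10 and Xpo7, which is 12.2% of the members, against 27.5% of all tested genes. Members with at least 9 of 10 RFP- arrays and at most 2 of 9 RFP+ arrays well above background were Ranbp2, Tnpo2 and Xpo6 (6.12%, against 1.44% of all tested genes). Only Ranbp2 was detected on all 10 RFP- and on at most 1 RFP+ array (2.04%, against 0.0873%). In whole-population samples, fewer cells of a type and less RNA per cell cannot be told apart.

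**Figure D2:**
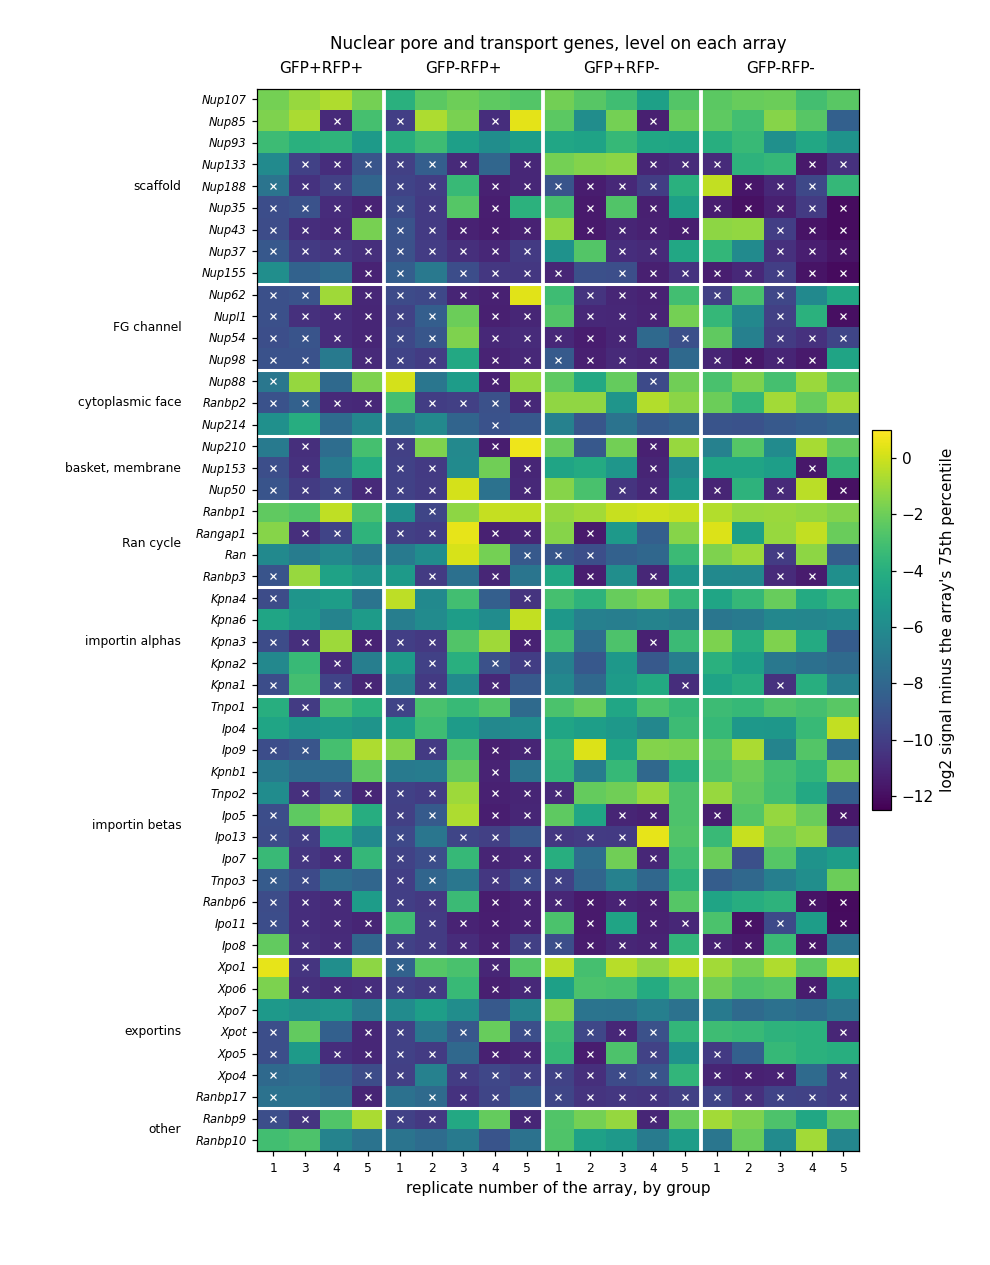
Level of the 49 tested members (rows, grouped by role) on each of the 19 arrays (columns, by group and replicate number), as log2 signal relative to the array's 75th percentile; a white cross marks a spot not well above background. Crosses cover most of the GFP-RFP+ columns other than replicate 3, where 37 of 49 members were detected, and Ranbp2 was detected in all 10 RFP- columns, with GFP+RFP- replicate 3, at -5.44, the dimmest of them.

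The level of a member varied widely within each group. The median SD over members was 2.34 for GFP+RFP+ cells, 3.21 for GFP-RFP+ cells, 2.80 for GFP+RFP- cells and 2.81 for GFP-RFP- cells on the log2 scale, against 1.18, 1.40, 1.24 and 1.02 for all tested genes in the same 4 groups. The smallest member SD in any group was 0.34 and the largest was 5.57. Spots that switch between the floor and bright signal gave the large values, as with Rangap1, Nup85 and Nup62.

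The Foxp3 reporter comparisons ask how Treg differ from conventional cells, GFP-RFP+ against GFP-RFP- cells for those without the IL-2 reporter and GFP+RFP+ against GFP+RFP- cells for those with it. These 2 comparisons share no arrays, but they share the estimate of the spread. Without the IL-2 reporter, 1 of 49 members passed the test, Ranbp2, which was lower in GFP-RFP+ than in GFP-RFP- cells at an adjusted p under 0.05 over all tested genes in limma. Over all tested genes, 1.7% passed, 0.471% higher and 1.23% lower. With the IL-2 reporter, again 1 of 49 passed, Ranbp2, lower in GFP+RFP+ than in GFP+RFP- cells, beside 0.204% of all tested genes, 0.0873% higher and 0.116% lower. The share of members called, 1 gene or 2.04% each time, was near the background in the first comparison.

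The median difference of the members was below that of all tested genes in both comparisons. Negative differences were found for 40 of 49 members in GFP-RFP+ against GFP-RFP- cells (81.6%, against 57.1% of all tested genes), and the median log2 difference was -1.95, against -0.29 for all tested genes. For GFP+RFP+ against GFP+RFP- cells, 29 of 49 members were below 0 (59.2%, against 44.1%), and the median was -0.79, against 0.22. Both differences were negative for 28 members (57.1%), as for 35.4% of all tested genes, and both were positive for 8 members (16.3%, against 34.2%): Kpna6, Nup155, Nup214, Nup93, Nup98, Ranbp17, Xpo4 and Xpo7. Member probes that were never well above background also gave positive differences in both comparisons. They were 0.71 to 1.16 for GFP-RFP+ against GFP-RFP- cells and 0.71 to 1.08 for GFP+RFP+ against GFP+RFP- cells. Nup155, Nup98, Ranbp17 and Xpo4 were not well above background on most arrays. The part of this offset at the floor in the positive differences was not tested. At an unadjusted p under 0.05, 11 members were lower and 1 was higher in GFP-RFP+ cells (12.2% and 10.4% of all tested genes), and 4 were lower and 4 higher in GFP+RFP+ cells (5.04% and 12.4%).

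The scaling of the arrays moved these medians but not their order. Under 4 other scalings the median over all tested genes was 0.23 to 1.02 in GFP-RFP+ against GFP-RFP- cells, and the member median relative to it was -1.85 to -0.95, beside -1.66 in the main setting. For GFP+RFP+ against GFP+RFP- cells the member median relative to all tested genes was -1.24 to -0.68, beside -1.0. The scaling also turned the split of the calls over all genes. Between GFP-RFP+ and GFP-RFP- cells 97 genes were called higher and 254 lower in the main setting, against 3505 higher and 517 lower with the percentile taken over all probes. Among the 6 members detected on all 19 arrays alone, the median was -0.10 without and 0.30 with the IL-2 reporter, against 0.22 and 0.54 for all genes with such detection. That choice leaves out any gene that was undetected in 1 group, so these medians cannot show where the lower medians of the 49 members came from.

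**Figure D3:**
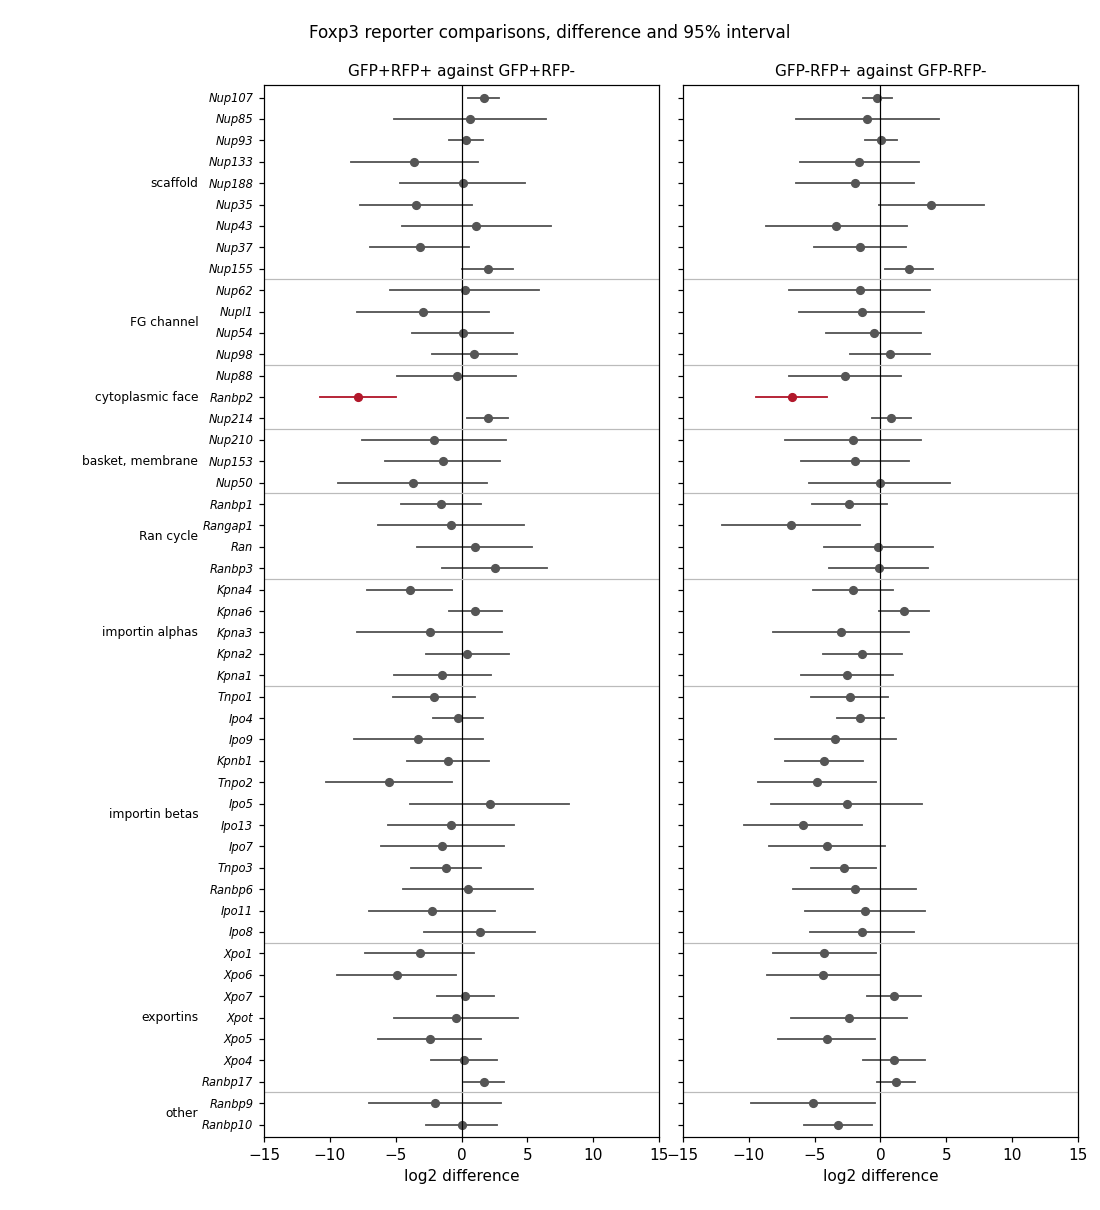
Log2 difference of each of the 49 tested members with its 95% interval, by role, in GFP+RFP+ against GFP+RFP- cells (left) and GFP-RFP+ against GFP-RFP- cells (right); red marks an adjusted p under 0.05 in limma. Ranbp2 is the red point in both panels, at -7.84 and -6.73, and the intervals of most other members span 0.

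Ranbp2 encodes the giant nucleoporin of the cytoplasmic filaments, which binds Ran-GTP, docks sumoylated Rangap1 at the pore and acts as a SUMO E3 ligase. Its processed signal was 7.42, 18.8, 2.68 and 3.03 intensity units on the GFP+RFP+ arrays, against 6340, 6486, 289.8, 5230 and 5194 on the GFP+RFP- arrays. It was 580, 3.65, 12.1, 13.6 and 3.67 on the GFP-RFP+ arrays, against 3714, 1521, 9275, 3054 and 6569 on the GFP-RFP- arrays. The Ranbp2 spot was thus well above background on 0 of 4 and 1 of 5 Treg arrays and on all 10 conventional arrays. The exception among the Treg arrays was GFP-RFP+ replicate 1.

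On the log2 scale the Ranbp2 level was -9.12, -8.28, -10.89 and -10.94 in GFP+RFP+ cells, against -1.24, -1.24, -5.44, -0.57 and -1.34 in GFP+RFP- cells. These groups did not overlap, which held in the lower direction for 1.45% of all tested genes. The difference was -7.84 (SE 1.36, adjusted p = 0.0280 in limma). Because the spot was not well above background on any GFP+RFP+ array, the level there is only a bound. In the main setting the group mean of these arrays was at least 75-fold lower in GFP+RFP+ cells. That bound sets the mean of GFP+RFP- cells against the lowest signal well above background on each GFP+RFP+ array. It does not include the spread among arrays or the choice of background correction, so it is no lower limit for the cells themselves. The measured means were -9.81 ± 1.32 in GFP+RFP+ against -1.97 ± 1.96 in GFP+RFP- cells (SD, n = 4 and 5).

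Without the IL-2 reporter, the Ranbp2 level was -2.98, -10.04, -9.92, -9.15 and -10.95 in GFP-RFP+ cells, against -2.05, -3.50, -0.85, -2.16 and -0.83 in GFP-RFP- cells. Here GFP-RFP+ replicate 1 lay inside the range of the GFP-RFP- arrays and the other 4 lay below it. The difference was -6.73 (SE 1.28, adjusted p = 0.0208 in limma), with means of -8.61 ± 3.21 in GFP-RFP+ against -1.88 ± 1.11 in GFP-RFP- cells (SD, n = 5 each). Within slides 1, 2 and 3, which held arrays of every group, the difference was -5.00, -7.20 and -9.22. For GFP+RFP+ against GFP+RFP- cells the differences within slides were -5.36, -9.99 and -9.60. Slide 1, with 2 arrays of each group, gave adjusted p-values of 0.555 and 0.377 in limma. On slides 2 and 3 each comparison had a group with 1 array, so those values are given without a test.

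The Ranbp2 call depended on single arrays and on the scaling more than its sign did. Without the IL-2 reporter the call was lost without GFP-RFP+ replicate 2 (adjusted p = 0.0518) or without GFP-RFP- replicate 3 (0.0516), and when detection of probes entered the model as a covariate (0.129), where the difference was -8.74. With the IL-2 reporter it was lost on leaving out any of the 4 GFP+RFP+ arrays or GFP+RFP- replicate 1, 2 or 5 (adjusted p of 0.0549 to 0.101), and with the percentile over all probes (0.110), quantile normalization (0.0706), the deposited series table (0.0666), a scan day block (0.0695) or the replicate block (0.0764). With normexp background correction the differences were smaller, at -4.30 with and -3.97 without the IL-2 reporter. Every setting in which Ranbp2 was tested kept a negative difference in both comparisons.

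The other cytoplasmic face nucleoporins did not follow Ranbp2. Nup214, which anchors Xpo1 export complexes, was at -5.72, -4.07, -7.78 and -6.28 in GFP+RFP+ cells, against -6.58, -8.90, -7.35, -8.69 and -8.25 in GFP+RFP- cells. The difference was 1.99 (SE 0.73) with overlapping groups and an adjusted p of 0.182 in limma. The Nup214 difference without the IL-2 reporter was 0.83 (adjusted p = 0.498 in limma). Nup88, the partner of Nup214, averaged -4.44 ± 3.58 in GFP+RFP+ against -4.06 ± 3.16 in GFP+RFP- cells (SD, n = 4 and 5), and -4.91 ± 4.62 in GFP-RFP+ against -2.23 ± 0.86 in GFP-RFP- cells (SD, n = 5 each). Neither Nup88 difference passed the test.

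**Figure D4:**
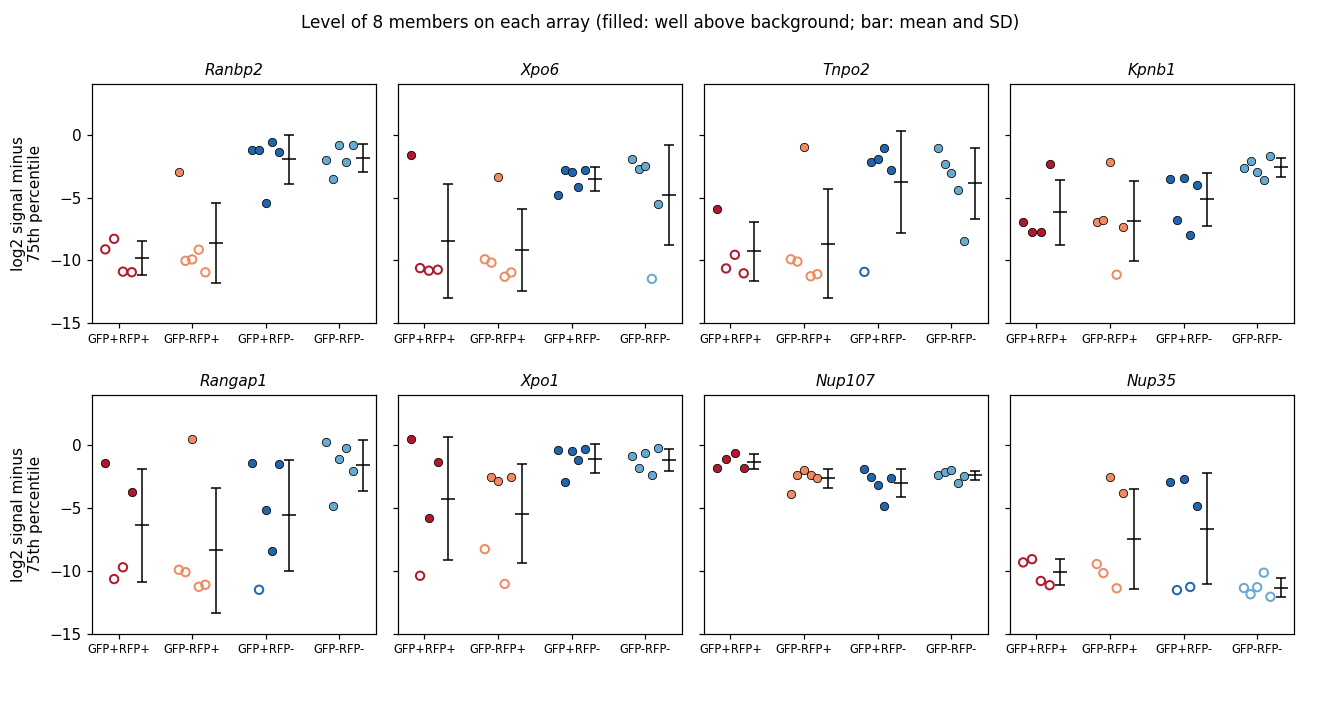
Level of 8 members on each array by group, as log2 signal relative to the array's 75th percentile; filled points were well above background, open points were not, and the bar beside each group gives its mean and SD. Ranbp2 separates all 4 GFP+RFP+ arrays from all 5 GFP+RFP- arrays, Xpo6 and Tnpo2 show 1 detected array in each Treg group, and Nup107 stays between -4.83 and -0.61 on all 19 arrays.

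Of 9 scaffold nucleoporins tested, none passed the test in either Foxp3 reporter comparison. Nup107, the core of the Y complex, was among the steadiest members and was detected on all 19 arrays. Its level was -1.81, -1.09, -0.61 and -1.81 in GFP+RFP+ cells, against -1.88, -2.52, -3.15, -4.83 and -2.59 in GFP+RFP- cells. The groups did not overlap, which held in the higher direction for 6.37% of all tested genes, and the difference of 1.67 (SE 0.56) had an adjusted p of 0.152 in limma. Nup107 passed the test in this comparison with normexp correction and when only genes detected on all 19 arrays were tested. In these settings 24.3% and 12.9% of all genes tested passed, 94.4% and 94.5% of them higher. Without the IL-2 reporter its difference was -0.23 (adjusted p = 0.831 in limma), but it turned to 1.55 with quantile normalization and to 1.19 with the deposited series table. It passed the test in both (adjusted p of 0.0210 and 0.0370 in limma), beside 16.9% and 17.5% of all tested genes. Nup93, an inner ring nucleoporin detected on all 19 arrays, was at 0.04 in the main setting and at 2.27 and 2.15 in those 2 settings (adjusted p of 0.0433 and 0.0462). The direction of these steadily detected scaffold genes between GFP-RFP+ and GFP-RFP- cells thus rests on the scaling.

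Nup155, also of the inner ring, was well above background on 3 of 4 arrays of GFP+RFP+ cells and 1 of 5 of GFP-RFP+ cells, against 1 of 5 of GFP+RFP- cells and 0 of 5 of GFP-RFP- cells. Its difference was 2.0 with the IL-2 reporter (adjusted p = 0.271 in limma). Without it, the measured Nup155 level averaged -9.08 in GFP-RFP+ against -11.2 in GFP-RFP- cells (adjusted p = 0.162 in limma). No fold is given there, because most of these spots were not well above background. With normexp correction Nup155 passed the test in both comparisons, beside 24.3% of all tested genes with and 23.5% without the IL-2 reporter.

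Nup35, another inner ring nucleoporin, was not well above background on any GFP+RFP+ or GFP-RFP- array, and was so on 2 of 5 arrays of GFP-RFP+ cells and 3 of 5 of GFP+RFP- cells. Its level in GFP-RFP+ cells was -9.46, -10.18, -2.56, -11.39 and -3.82, against values of -12.07 to -10.15 in GFP-RFP- cells. The adjusted p in limma was 0.233 for this comparison and 0.379 for GFP+RFP+ against GFP+RFP- cells. No fold is given for either, because the brighter group also held arrays where the Nup35 spot was not well above background. Nup85, another Y complex member, ranged from -10.89 to -0.73 in GFP+RFP+ and from -11.29 to -1.81 in GFP+RFP- cells. The Nup85 difference was 0.65 with and -0.99 without the IL-2 reporter (adjusted p of 0.931 and 0.855 in limma).

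The 4 FG nucleoporins of the central channel were detected least often of the role groups. They were well above background in 12.5% of array-by-gene values for GFP+RFP+ cells, 20% for GFP-RFP+ cells, 30.0% for GFP+RFP- cells and 45.0% for GFP-RFP- cells. Their median difference was 0.16 with and -0.97 without the IL-2 reporter, and none passed the test. The 3 basket and membrane nucleoporins (Nup50, Nup153, Nup210) had negative differences in both comparisons, with a median of -2.08 with and -1.95 without the IL-2 reporter. Nup210, the membrane glycoprotein of the pore, averaged -7.10 ± 3.17 in GFP+RFP+ against -5.02 ± 4.67 in GFP+RFP- cells (SD, n = 4 and 5), and -5.70 ± 5.19 in GFP-RFP+ against -3.63 ± 2.52 in GFP-RFP- cells (SD, n = 5 each). None of the 3 passed the test.

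Among the Ran cycle genes, Rangap1, the GTPase activator of Ran, had the largest difference without the IL-2 reporter. Its level was -9.92, -10.11, 0.51, -11.27 and -11.11 in GFP-RFP+ cells, against 0.27, -4.84, -1.10, -0.26 and -2.07 in GFP-RFP- cells. GFP-RFP+ replicate 3 was as high as the highest GFP-RFP- arrays, and the other 4 were at the floor. The difference was -6.78 (SE 2.47, adjusted p = 0.131 in limma), and Rangap1 passed the test only when GFP-RFP+ replicate 3 was left out. Rangap1 was at -1.46, -10.66, -9.72 and -3.70 in GFP+RFP+ cells, against -1.43, -11.51, -5.19, -8.39 and -1.47 in GFP+RFP- cells, a difference of -0.79 (adjusted p = 0.909 in limma).

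Ran itself was detected on 4 of 4 arrays of GFP+RFP+ cells and 4 of 5 of GFP-RFP+ cells, against 3 of 5 of GFP+RFP- cells and 4 of 5 of GFP-RFP- cells. The Ran level ranged from -7.10 to -6.09 in GFP+RFP+ against -9.27 to -3.31 in GFP+RFP- cells, and from -8.72 to 0.19 in GFP-RFP+ against -10.12 to -0.99 in GFP-RFP- cells. Ranbp1, which assists Rangap1 in hydrolysing Ran-bound GTP, was the brightest of the Ran cycle genes and averaged -2.03 ± 1.19 in GFP+RFP+ against -0.46 ± 0.51 in GFP+RFP- cells (SD, n = 4 and 5). In GFP-RFP+ cells its level was -5.70, -9.66, -1.29, -0.20 and -0.29, against -0.55, -1.10, -1.05, -1.21 and -1.49 in GFP-RFP- cells. The Ranbp1 difference was -1.57 with and -2.35 without the IL-2 reporter (adjusted p of 0.595 and 0.309 in limma).

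Importin alphas (Kpna), the adaptors that bind classical nuclear localization signals, were well above background in 60.0% of values in GFP+RFP+ against 92.0% in GFP+RFP- cells, and in 64% in GFP-RFP+ against 96% in GFP-RFP- cells. Kpna4, known from human cells to carry NF-κB, had the clearest separation. Its level was -9.37, -5.47, -4.96 and -7.30 in GFP+RFP+ cells, against -3.0, -3.77, -2.14, -1.67 and -3.52 in GFP+RFP- cells. The groups did not overlap, which held in the lower direction for 1.45% of all tested genes and for 2 of 49 members, Kpna4 and Ranbp2. The Kpna4 difference of -3.95 (SE 1.53) had an adjusted p of 0.200 in limma. In GFP-RFP+ cells Kpna4 ran from -10.49 to -0.34, across the range of -4.56 to -2.13 in GFP-RFP- cells. Kpna6 was detected on all 19 arrays and averaged -5.32 ± 0.79 in GFP+RFP+ against -6.37 ± 0.61 in GFP+RFP- cells (SD, n = 4 and 5), and -4.77 ± 2.62 in GFP-RFP+ against -6.57 ± 0.50 in GFP-RFP- cells (SD, n = 5 each). The second difference passed the test under 3 of the other scalings, at 3.1 to 3.36, beside 16.9% to 19.5% of all tested genes. GFP-RFP+ replicate 5, at -0.23, was the highest of all 19 arrays for Kpna6. Its other probe gave -1.67 for the same difference, so the direction for Kpna6 rests on the choice of probe. The Kpna4 relative Kpna3 averaged -8.05 ± 4.78 in GFP+RFP+ against -5.62 ± 3.75 in GFP+RFP- cells (SD, n = 4 and 5) and -7.00 ± 4.82 in GFP-RFP+ against -4.02 ± 2.84 in GFP-RFP- cells (SD, n = 5 each). The 3 tested Kpna3 probes gave -2.43, -1.25 and 5.35 for the first difference, so its direction rests on the choice of probe.

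All 12 importin betas and transportins had a negative difference in GFP-RFP+ against GFP-RFP- cells (median -2.68), as did 57.1% of all tested genes, and 9 of 12 did in GFP+RFP+ against GFP+RFP- cells (median -1.11), as did 44.1%, with 0 passing the test in limma. At an unadjusted p under 0.05, 4 of 12 were lower in GFP-RFP+ cells (12.2% of all tested genes) and 1 of 12 was lower in GFP+RFP+ cells (5.04%). Kpnb1, the importin beta that carries importin alpha and its cargo, was at -6.92, -6.82, -2.20, -11.14 and -7.32 in GFP-RFP+ cells, against -2.69, -2.07, -2.98, -3.61 and -1.68 in GFP-RFP- cells. GFP-RFP+ replicate 3 again lay among the GFP-RFP- arrays and the other 4 below them. The Kpnb1 difference was -4.27 (SE 1.40, adjusted p = 0.103 in limma), and it passed the test with normexp correction and without GFP-RFP+ replicate 3.

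Tnpo2, a transportin for RNA-binding proteins, was well above background on 1 of 4 arrays of GFP+RFP+ cells and 1 of 5 of GFP-RFP+ cells, against 4 of 5 of GFP+RFP- cells and 5 of 5 of GFP-RFP- cells. The Tnpo2 difference was -5.52 with the IL-2 reporter (adjusted p = 0.224 in limma) and -4.80 without it (adjusted p = 0.195). Its paralog Tnpo1 was detected on 3 of 4 arrays of GFP+RFP+ cells, 4 of 5 of GFP-RFP+ cells and all 10 RFP- arrays, with differences of -2.08 with and -2.34 without the IL-2 reporter. The other tested Tnpo1 probe gave 1.44 with and -2.94 without the IL-2 reporter, so the first direction rests on the choice of probe. Ipo13, which carries cargo both ways across the pore, was well above background on 2 of 5 arrays of GFP-RFP+ cells and 5 of 5 of GFP-RFP- cells, with means of -9.04 ± 1.10 and -3.18 ± 3.65 (SD, n = 5 each) and an adjusted p of 0.130 in limma. Ipo7, an import receptor for ribosomal proteins and histone H1, was at -8.92 ± 3.15 in GFP-RFP+ against -4.87 ± 2.85 in GFP-RFP- cells (SD, n = 5 each, adjusted p = 0.254 in limma).

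Exportins were mixed. Xpo1, the exporter of proteins with leucine-rich export signals, was at -8.27, -2.54, -2.86, -11.05 and -2.55 in GFP-RFP+ cells, against -0.85, -1.82, -0.63, -2.37 and -0.22 in GFP-RFP- cells. The groups did not overlap, which held in the lower direction for 2.59% of all tested genes, and Xpo1 was the only one of 49 members in that class (2.04%). Its difference of -4.28 (SE 1.85) had an adjusted p of 0.186 in limma. In GFP+RFP+ cells the Xpo1 level ran from -10.40 to 0.48, across the range of -2.97 to -0.32 in GFP+RFP- cells.

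Xpo6, the exporter of profilin and actin, was averaged over 10 spots per array and had a detection split like that of Ranbp2 (both probes are printed above). Its level was -1.64, -10.61, -10.82 and -10.74 in GFP+RFP+ cells, against -4.82, -2.81, -2.94, -4.17 and -2.82 in GFP+RFP- cells. It was -9.91, -10.18, -3.38, -11.30 and -10.96 in GFP-RFP+ cells, against -1.92, -2.71, -2.51, -11.47 and -5.49 in GFP-RFP- cells. In each Treg group 1 array was high and the others lay at the floor, and 1 GFP-RFP- array lay at the floor too. The Xpo6 difference was -4.94 with and -4.33 without the IL-2 reporter (adjusted p of 0.250 and 0.216 in limma). Ranbp17, an exportin relative, was well above background on 2 of 4 arrays of GFP+RFP+ cells and 2 of 5 of GFP-RFP+ cells and on none of the 10 RFP- arrays. The measured Ranbp17 level averaged -8.47 in GFP+RFP+ against -10.15 in GFP+RFP- cells (adjusted p = 0.244 in limma). It averaged -8.83 in GFP-RFP+ against -10.02 in GFP-RFP- cells (adjusted p = 0.309 in limma). No fold is given, because most of these spots were not well above background. Ranbp17 passed the test in both comparisons with normexp correction, beside 24.3% of all tested genes with and 23.5% without the IL-2 reporter. Xpo7 was detected on all 19 arrays, at -5.79 ± 0.77 in GFP+RFP+ against -6.06 ± 2.55 in GFP+RFP- cells (SD, n = 4 and 5) and -6.40 ± 1.42 in GFP-RFP+ against -7.44 ± 0.38 in GFP-RFP- cells (SD, n = 5 each).

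Ranbp9 and Ranbp10 match the name rule and belong to the family of Ran-binding scaffold proteins of an E3 ubiquitin ligase complex, not to the transport machinery proper. Ranbp10 was detected on all 19 arrays and was at -7.32, -7.72, -7.00, -9.02 and -7.40 in GFP-RFP+ cells, against -7.18, -2.11, -5.99, -0.85 and -6.30 in GFP-RFP- cells, a difference of -3.2 (adjusted p = 0.143 in limma). Ranbp10 averaged -4.92 in both groups with the IL-2 reporter. Ranbp9 had differences of -2.0 with and -5.13 without the IL-2 reporter (adjusted p of 0.697 and 0.188 in limma).

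The IL-2 reporter comparisons ask how reporter-positive cells differ from negative ones within each lineage. They share arrays with the Foxp3 reporter comparisons, so their values are given on their own. In GFP+RFP- against GFP-RFP- cells, 0 of 49 members passed the test in limma, beside 0.0097% of all tested genes, and 1 member had an unadjusted p under 0.05 (5.15% of all tested genes). That member was Nup35, at -2.91, -11.54, -2.68, -11.29 and -4.81 in GFP+RFP- cells, where 3 of 5 arrays were well above background. Its mean was higher than in GFP-RFP- cells, where it was not well above background on any array (adjusted p = 0.920 in limma). The member median was -0.41, against -0.02 for all tested genes. Rangap1 averaged -5.60 ± 4.40 in GFP+RFP- against -1.60 ± 2.02 in GFP-RFP- cells, and Kpnb1 averaged -5.15 ± 2.09 against -2.61 ± 0.76 (SD, n = 5 each), neither passing the test.

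In GFP+RFP+ against GFP-RFP+ cells, 0 of 49 members passed the test in limma, beside 0.00485% of all tested genes, and 3 had an unadjusted p under 0.05, all higher (4.25% of all tested genes). They were Nup214 (difference 1.89), Nup107 (1.32) and Ranbp10 (2.77), with adjusted p-values of 0.812, 0.898 and 0.909 in limma. The Nup107 level in GFP+RFP+ cells lay above that of every GFP-RFP+ array, and the highest GFP-RFP+ array was at -1.96. Groups did not overlap in the higher direction for 0.815% of all tested genes. The member median was 0.55, against 0.41 for all tested genes. Ranbp2 was at the floor in both groups but for GFP-RFP+ replicate 1, so no difference is given for it. It did not pass the test (adjusted p = 0.933 in limma).

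Whether the Foxp3 reporter difference itself changed with the IL-2 reporter was tested as an interaction. No member passed in limma (0 of 49, beside 0.0097% of all tested genes), and 2 had an unadjusted p under 0.05 (4.91% of all tested genes), Nup35 and Nup107. The Nup107 interaction was 1.90, and none is given for Nup35, whose level was only a bound in GFP+RFP+ and GFP-RFP- cells. For Ranbp2 none is given either, because its level was only a bound in GFP+RFP+ cells and most GFP-RFP+ arrays were at the floor. The member median was 1.07, against 0.40 for all tested genes. The importin betas had a median interaction of 2.04, in which 10 of 12 were positive, as were 13114 of 20613 tested genes. All 4 Ran cycle genes were positive as well. The Ran probe not used gave Foxp3 reporter differences of -3.09 with and -0.28 without the IL-2 reporter, so the sign for Ran rests on the choice of probe.

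Of 13 members with several tested probes, 12 had probes of 1 sign in GFP-RFP+ against GFP-RFP- cells, the exception being Kpna6, and 8 did in GFP+RFP+ against GFP+RFP- cells. The exceptions there were Kpna3, Kpna6, Nup188, Ran and Tnpo1. The Ran probe not used gave -3.09 in GFP+RFP+ against GFP+RFP- cells, beside 1.00 for the probe used, so the direction for Ran rests on the choice of probe. Ranbp2 had 1 probe on the array, which leaves its values without a check by another probe.

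Pore and transport genes that the name rule does not match were listed as well, 24 in all with 22 tested. Differences between GFP-RFP+ and GFP-RFP- cells were negative for 18 of 22 (57.1% of all tested genes), with a median of -2.31, against -0.29. At an unadjusted p under 0.05, 7 of 22 were lower and 0 higher (12.2% and 10.4% of all tested genes), and 1 passed the test (1.7% of all tested genes), Sec13, which is shared by the Y complex and the COPII coat. Sec13 averaged -9.75 ± 1.25 in GFP-RFP+ against 0.01 ± 0.53 in GFP-RFP- cells (SD, n = 5 each), was detected on 1 against 5 arrays, and differed by -9.76 (SE 1.88, adjusted p = 0.0214 in limma). Between GFP+RFP+ and GFP+RFP- cells 13 of 22 were negative (44.1% of all tested genes) with a median of -1.03, against 0.22, and 0 passed in limma, with 1 lower and 0 higher at an unadjusted p under 0.05 (5.04% and 12.4% of all tested genes). Sec13 averaged -5.83 ± 4.25 in GFP+RFP+ against -3.00 ± 4.63 in GFP+RFP- cells (SD, n = 4 and 5). None of the 22 passed in the IL-2 reporter comparisons or the interaction, where an unadjusted p under 0.05 was found for 2 among conventional cells (5.15% of all tested genes), 2 among Treg, both higher with the IL-2 reporter (4.25%), and 3 in the interaction (4.91%).

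The 7 members that did not enter the tests were Kpna7, Nup160, Nup205, Nup210l, Nup62cl, Nupl2 and Ranbp3l. Nup62cl was not well above background on any array. Nup160, the Y complex partner of Nup85 and Nup107, and Nupl2, a cytoplasmic face nucleoporin, were well above background on 3 arrays each, Kpna7 and Nup205 on 2, and Nup210l and Ranbp3l on 1. The members that passed did so on detection in any group, so those seen in 1 lineage only entered through it.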

How the data were processed

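Each sample was hybridized to an Agilent one-colour whole mouse genome array. Per the file headers, the authors' scanner intensity values were made with Agilent Feature Extraction 10.7.3.1, with background subtracted within each array and no scaling between arrays. The deposited series table by the authors holds log2 values, with the normalization not given in these sources. Groups came from the sample titles.

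Of 62976 spots per array, 3671 controls and outlier spots (3296 over all arrays) were left out. Repeated spots were averaged and counted as well above background by majority. Log2 signals were scaled to the 75th percentile over 6610 probes, and genes detected with a probe on 4 or more arrays were fitted in 1 model of the 4 groups with limma 3.58.1 (R 4.3.3, files read through the data.table package at 1.17.8), with Benjamini-Hochberg adjustment over 20613 genes and calls at an adjusted p under 0.05. No test was run over the member list. Gene names came from RefSeq accessions for 27235 of 55681 probes and otherwise from the files. The number of arrays limits the precision. The pipeline was tested on simulated data. The numbers in the titles were not used to pair samples. In 27 same-numbered pairs the correlation of deviations from group means was -0.0744 to 0.0936, and in 108 other pairs it was -0.269 to 0.184. Such low correlations cannot exclude that samples of the same number came from 1 source.

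Members and lists were chosen with earlier results of these data known. The summed level of 1 of 6 marker lists is not reported here. Named are members called in any comparison, the 3 smallest p-values per comparison, the largest difference per role, the 5 brightest, the Ran cycle core, members never detected, members whose probes disagree, and called pathway genes; others appear as values of a count or range. Alternatives were the percentile over all probes, normexp correction with an offset of 50, quantile normalization, the series table, other filters and probe rules, replicate, slide and scan day blocks, fits within slides, a detection covariate, leaving out arrays under 30% of probes detected or each array in turn, and a trended robust prior. Figures were made in Python 3.11.15 with pandas 2.3.3 and drawn by matplotlib 3.10.9.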

Additional observations from a re-analysis of the deposited data

Results flagged for a closer look

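Within-group outliers were looked for in 96 sets of values, the named members and the number of members detected, in groups of 4 or 5 arrays. In 15 of them the highest or lowest array stood apart by Dixon's 95% criterion, and chance flags about 1 in 20. The number of members detected on GFP-RFP+ replicate 3 was 37, against 16 to 20 on the other GFP-RFP+ arrays. On the same array Rangap1 was at 0.51, Tnpo2 at -0.98, Xpo6 at -3.38 and Ipo7 at -3.45, each gene being at -9.30 or lower on the other 4.

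Ranbp2 was at -2.98 on GFP-RFP+ replicate 1, where the other GFP-RFP+ arrays ran from -10.95 to -9.15, and at -5.44 on GFP+RFP- replicate 3, where the others ran from -1.34 to -0.57. Among the GFP+RFP+ arrays, Xpo6 was at -1.64 on replicate 1, Kpnb1 at -2.31 on replicate 5 and Tnpo1 at -10.17 on replicate 3. Among the GFP+RFP- arrays, Xpo7 was at -1.54 and Tnpo2 at -10.91 on replicate 1, Ranbp9 at -11.08 on replicate 4 and Ran at -3.31 on replicate 5. Among the GFP-RFP- arrays, Nup85 was at -8.34 on replicate 5. Of the 15, 10 were high and 5 were low for their group.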

How the results depend on the processing

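The count of members called in GFP-RFP+ against GFP-RFP- cells, 1 in the main setting, was 6 with the percentile over all probes (12.2% of members, against 19.5% of all tested genes), 5 with normexp correction (10.2%, against 23.5%), 4 with quantile normalization (8.16%, against 16.9%) and 5 with the series table (10.2%, against 17.5%), each time a smaller share than over all genes. It was 0 with the filter for detection on all 19 arrays, within slide 2 and within slide 3, where a group had 1 array, and with the detection covariate. The added members were mostly called higher: 5 of the 6 (Kpna6, Nup155, Nup214, Nup35 and Ranbp17) with the percentile over all probes, where 4022 genes were called in all, against 351. In GFP+RFP+ against GFP+RFP- cells the count of 1 became 5 with normexp correction (4 of them higher), 10.2% of members against 24.3% of all tested genes (4727 of 5008 higher), and 0 with the percentile over all probes, quantile normalization, the series table, within each slide or with a scan day block. Leaving out each array gave 0 to 4 members called in GFP-RFP+ against GFP-RFP- cells (4 without GFP-RFP+ replicate 3: Kpnb1, Ranbp2, Rangap1 and Tnpo2, all lower) and 0 to 1 in GFP+RFP+ against GFP+RFP- cells. The other comparisons and the interaction kept 0 members called on leaving out any array. The replicate block, which treats arrays of the same number as a set, gave 1 member among 199 genes called when GFP-RFP+ was set against GFP-RFP-, and 0 of 8 in GFP+RFP+ against GFP+RFP- cells, beside 42 genes without it. Of 19 arrays, 6 correlated best with an array of their own number.

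The member median in GFP-RFP+ against GFP-RFP- cells was -2.39 to -1.39 on leaving out arrays and -0.10 with the filter for detection on all 19 arrays. In GFP+RFP+ against GFP+RFP- cells it was -1.25 to -0.02 on leaving out arrays, and it reversed to 0.30 with that filter, 0.49 within slide 2 and 0.0563 with the detection covariate. In GFP+RFP+ against GFP-RFP+ cells it reversed to -0.24 within slide 1, -0.47 within slide 2 and -0.0766 without the arrays under 30% of probes detected. In GFP+RFP- against GFP-RFP- cells it reversed to 1.01 within slide 3 and, among left-out arrays (-0.86 to 0.18), to 0.18 without GFP+RFP- replicate 4. The median interaction reversed to -0.38 within slide 3. The filter left 6 members, so its medians describe a smaller set of genes than the main setting. The cause of these and the other shifts was not tested. A tally under the alternatives covers 15 results of named members only. Of its 515 values, 484 kept their direction and side of the threshold, 21 lost the call, 6 gained it and 4 moved. Not every call gained by a named member is in this tally. Members at the floor have no order among themselves, which limits every difference that rests on them.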
